A study of Mus musculus with 6 samples.

Results

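The 8 genes described here mark resident macrophages in mouse tissue: C1qa, C1qb, C1qc, Cd163, Mrc1, Csf1r, Cx3cr1 and Cd68. They were picked by symbol from a table of 16906 protein-coding genes, and each symbol matched 1 row. All 8 were measured by RNA sequencing of whole colon from wild-type C57BL/6J males, 6 to 8 weeks old and weighing 20 to 22 g. The 3 normal samples came from mice on normal feeding. The 3 other samples carried a colitis induced with trinitrobenzenesulfonic acid (TNBS), a hapten that was instilled through the anus at 5% w/v and inflames the gut wall. No vehicle treatment is named for the normal group, so the procedure and the TNBS cannot be told apart. The labels give no time after TNBS for these samples and do not tie them to numbered animals.

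Resident macrophages sit beneath the gut epithelium, where they clear dead cells and microbes. In the mouse colon most of them are renewed from blood monocytes, which gain the scavenger receptors Cd163 and Mrc1, the fractalkine receptor Cx3cr1 and high C1q as they mature. Survival of these cells depends on Csf1r, the receptor for the growth factors Csf1 and Il34. C1q, assembled from the products of C1qa, C1qb and C1qc, recognises immune complexes and dying cells and starts the classical complement pathway.

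C1qb, C1qa and C1qc lie side by side on the minus strand of chromosome 4 between 136880129 and 136898803 (mm10), a stretch of 18.7 kb. Cd68 lies on chromosome 11 from 69664213 to 69666153 and Cd163 on chromosome 6 from 124304656 to 124330527. Mrc1 is on chromosome 2 from 14229392 to 14332057 and Cx3cr1 on chromosome 9 from 119901616 to 120069879. The values are counts over whole genes. The RefSeq promoter table of the build GRCm38.p6 matched 6 of the 8 genes. Printed below are the 250 bases before the RefSeq start of C1qb and Cd68, whose levels ran in parallel, and of Cd163, whose level did not follow them. The sequences are given on the strand of the gene. Capitals mark GAGGAA, a core of sites bound by the macrophage transcription factor PU.1, and TGCTGA, a part of sites bound by MAF proteins, each searched on both strands with no overlap between matches.
C1qb, chr4:136886201-136886450, minus strand: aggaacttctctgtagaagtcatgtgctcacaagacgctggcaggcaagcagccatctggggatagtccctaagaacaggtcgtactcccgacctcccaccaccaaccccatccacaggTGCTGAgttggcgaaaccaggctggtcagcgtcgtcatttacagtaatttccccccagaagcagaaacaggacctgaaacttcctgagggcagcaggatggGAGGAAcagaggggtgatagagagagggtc
Cd68, chr11:69666171-69666420, minus strand: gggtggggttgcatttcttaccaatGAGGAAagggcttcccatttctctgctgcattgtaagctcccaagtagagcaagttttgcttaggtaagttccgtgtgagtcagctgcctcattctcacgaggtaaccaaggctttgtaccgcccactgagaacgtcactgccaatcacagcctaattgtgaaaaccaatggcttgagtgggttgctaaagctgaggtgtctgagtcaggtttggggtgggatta
Cd163, chr6:124304401-124304650, plus strand: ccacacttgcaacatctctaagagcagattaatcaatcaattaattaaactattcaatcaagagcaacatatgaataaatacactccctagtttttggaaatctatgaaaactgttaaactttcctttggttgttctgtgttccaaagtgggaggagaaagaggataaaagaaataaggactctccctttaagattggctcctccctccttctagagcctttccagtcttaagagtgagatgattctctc
Among 27025 promoters of this length, 23.1% held GAGGAA, 15.8% held TGCTGA and 3.63% held both. C1qb was the only 1 of the 6 matched genes with both. C1qb, C1qc and Cd68 each held 1 match of GAGGAA, and Mrc1, whose level did not follow C1q either, held 3. The windows of Cd163 and Cx3cr1 held neither string. Annotated exons of the same gene covered all 250 bases of the Cx3cr1 window, 151 bases of that of C1qc and 22 of that of Mrc1. Whether these strings bear on the levels was not tested. A match is a description of the letters and not evidence of binding.

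Libraries held 15185569 to 23380492 counts, so 3 counts correspond to 0.128 to 0.198 CPM, the counts scaled to a common library size. The colon epithelial markers Epcam, Vil1, Krt20, Car1, Slc26a3 and Muc2 were abundant in all 6 libraries, with summed levels of 13208 to 20571 CPM in normal and 7890 to 13363 CPM in TNBS colon. The libraries did not match each other in sex-linked, positional and mitochondrial transcripts. Relative to normal colon, the summed level of 4 Y-linked genes was 0.697% in TNBS replicate 1, 103% in replicate 2 and 38.2% in replicate 3, although all donors are described as male. The colon position gene Hoxb6 was at 79.3 and 80.6 CPM in TNBS replicates 2 and 3 and at most 11.5 CPM in the other 4 libraries. Hoxb13, a gene of the distal colon, was at 106, 57.7 and 7.37 CPM in normal and at 21.4, 0.194 and 0.308 CPM in TNBS replicates 1 to 3. Mitochondrial genes took 3.92% and 1.95% of the counts in TNBS replicates 2 and 3, and 0.563% to 0.951% in the other 4 libraries. Values from fits that keep a single TNBS library, replicate 1 or replicate 2, are therefore also given for the tested markers, Csf1 and Adgre1. They are not given singly for the genes called outside the markers. The part of these differences in the results was not tested.

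None of the macrophage markers passed the test between TNBS and normal colon, and they did not move as a block. Means of C1qa, C1qb, C1qc, Cd68 and Cd163 were higher in TNBS colon, at fitted folds of 1.27 to 1.72. Means of Mrc1 and Cx3cr1 were lower, at folds of 0.831 and 0.477. C1qa, C1qb and Cd68 ran in parallel from library to library, and C1qc followed less closely. Cx3cr1 was lower in every TNBS library than in any normal one, and Cd163 was higher in every one. Csf1r was nearly unread in all 6 libraries.

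Of the 8 genes, 7 passed the filter on low counts and Csf1r did not. In edgeR's quasi-likelihood test with Benjamini-Hochberg adjustment over 14126 genes, 0 of these 7 were called at an adjusted p under 0.05, where 2.05% of all genes tested were called (0.906% as higher, 1.14% as lower in TNBS colon). At an unadjusted p under 0.05 there was 1, Cd163, against 21.0% of all genes. DESeq2, which called 9.52% of all genes, and limma-voom also called 0 of the 7. The groups did not overlap for 2 of the 7, Cd163 and Cx3cr1, against 30.1% of all genes tested. The median log2 fold change of the 7 was 0.55, and that of all genes tested was 0.01. In bulk tissue, fewer cells of a type and less RNA per cell cannot be told apart.

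**Figure D1:**
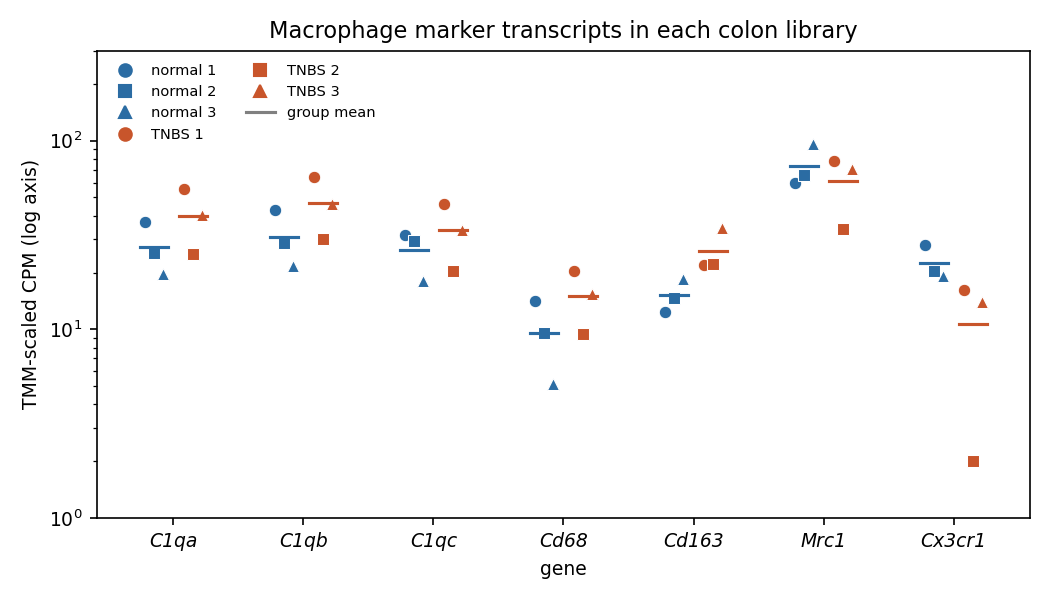
TMM-scaled CPM (log axis) of 7 marker genes in each of the 6 libraries, with blue for normal, orange for TNBS, a marker shape per replicate and a bar at each group mean (n = 3). The groups overlap for C1qa, C1qb, C1qc, Cd68 and Mrc1, and not for Cd163 and Cx3cr1, where TNBS replicate 2 is at 2.004 CPM; Csf1r, at 0 to 7 counts, is not drawn.

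C1qa encodes the A chain of C1q. It was at 37.3, 25.4 and 19.7 CPM in normal replicates 1 to 3 and at 55.2, 25.0 and 40.2 CPM in TNBS replicates 1 to 3. TNBS replicates 1 and 3 were above all normal libraries, and TNBS replicate 2 lay among them. The mean went from 27.5 ± 8.94 to 40.1 ± 15.1 CPM (SD, n = 3), and the log2 fold change was 0.55 (SE 0.33, edgeR adjusted p = 0.370). The 95% interval of the fold ran from 0.866 to 2.46, and the exact two-sided permutation test gave p = 0.3, where 3 against 3 cannot go below 0.1.

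C1qb, the B chain, was at 42.7, 28.5 and 21.7 CPM in normal colon and at 63.9, 30.0 and 46.0 CPM in TNBS colon. The order of the 6 libraries was nearly that of C1qa, and TNBS replicate 2 again fell within the normal range. The log2 fold change was 0.59 (SE 0.33, edgeR adjusted p = 0.334; fold interval 0.897 to 2.53).

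C1qc, the C chain, was at 31.7, 29.3 and 18.1 CPM in normal colon and at 46.2, 20.5 and 33.7 CPM in TNBS colon. Here TNBS replicate 2 was below normal replicates 1 and 2. The log2 fold change was 0.34 (SE 0.33, edgeR adjusted p = 0.575; fold interval 0.757 to 2.13). With TNBS replicate 2 kept alone the sign turned for all 3 chains, to -0.14, -0.05 and -0.37 on the log2 scale for C1qa, C1qb and C1qc. With TNBS replicate 1 kept alone all 3 stayed positive.

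C1qa and C1qb kept close to a fixed proportion within a library, and C1qc followed them less closely. There were 1.10 to 1.20 counts of C1qb per count of C1qa in all 6 libraries. For C1qc per C1qa the values were 0.851, 1.15 and 0.918 in normal and 0.837, 0.821 and 0.839 in TNBS colon. All TNBS libraries were below all normal ones, but TNBS replicate 3 and normal replicate 1 differed little. Set against C1q counts with all chains summed, 18.6% of all genes tested were lower in every TNBS library than in any normal one. The share against C1qa alone was not counted. Normal replicate 2 held the most C1qc. The log2 ratio difference between the groups was -0.21, and it ran from -0.30 to -0.087 when each library was left out in turn. Likeness of pattern was measured as the root mean square difference in log2 CPM over the 6 libraries, after each gene was centred on its own mean. By this measure C1qb was the nearest of 13915 genes to C1qa, with a difference of 0.04, and C1qa was the nearest to C1qb. C1qc was the gene at rank 6 from C1qa, with a difference of 0.17, while from C1qc the genes C1qa and C1qb were at ranks 19 and 38.

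Cd68 encodes a glycoprotein of late endosomes and lysosomes that is abundant in macrophages. It was at 14.1, 9.56 and 5.15 CPM in normal colon and at 20.3, 9.44 and 15.4 CPM in TNBS colon. The highest library was TNBS replicate 1 and the lowest normal replicate 3, as for C1qa. The mean went from 9.60 ± 4.47 to 15.03 ± 5.42 CPM (SD, n = 3), and the log2 fold change was 0.65 (SE 0.42, edgeR adjusted p = 0.398; fold interval 0.811 to 3.02). Cd68 was the gene at rank 18 of 13913 in likeness to the mean pattern of the C1q chains, with a difference of 0.20. Set against each chain, Cd68 was at rank 15 of 13915 from C1qa, 7 from C1qb and 202 from C1qc, the last with a difference of 0.27. Its counts came to 0.0864 to 0.126 per C1q count, all chains summed, in normal and 0.123 to 0.128 in TNBS colon. With TNBS replicate 2 kept alone its log2 fold change was -0.03, and with TNBS replicate 1 kept alone it stayed positive.

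**Figure D2:**
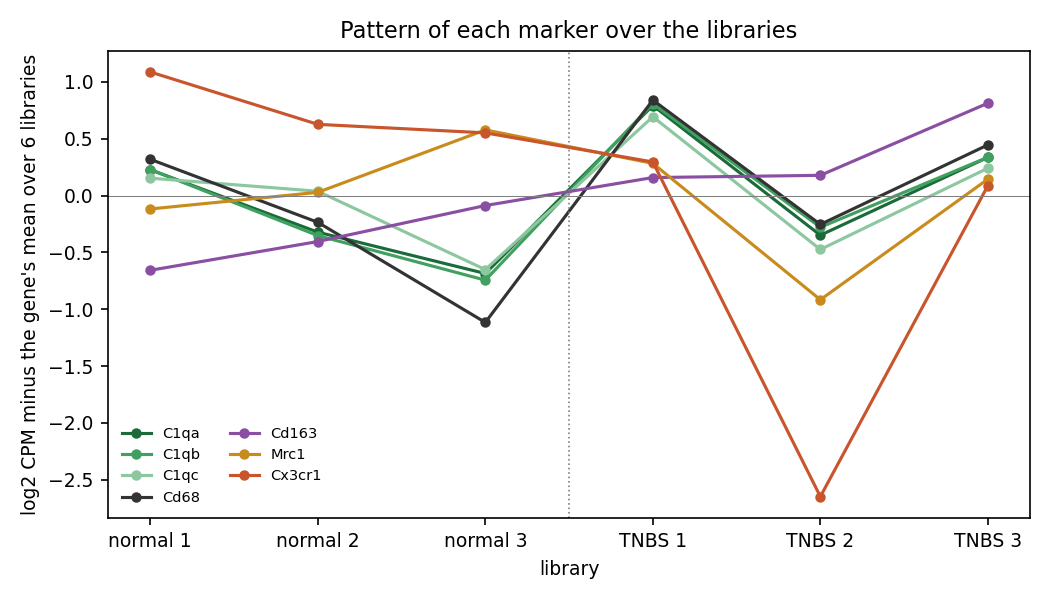
Log2 CPM of 7 marker genes minus each gene's own mean over the 6 libraries, for normal replicates 1 to 3 and TNBS replicates 1 to 3; lines join the values of 1 gene, and the libraries have no order. C1qa, C1qb, C1qc and Cd68 run together, with a high in TNBS replicate 1 and a low in normal replicate 3, while Cx3cr1 has its low in TNBS replicate 2.

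Cd163 encodes a scavenger receptor that takes up haemoglobin. It was at 12.3, 14.7 and 18.4 CPM in normal colon and at 21.8, 22.1 and 34.4 CPM in TNBS colon. All 3 TNBS libraries were above all 3 normal ones. The mean went from 15.1 ± 3.03 to 26.1 ± 7.17 CPM (SD, n = 3), and the log2 fold change was 0.79 (SE 0.27, unadjusted p = 0.0177 and adjusted p = 0.156 in edgeR). The 95% interval of the fold ran from 1.13 to 2.64, and the exact permutation p was 0.1, the smallest that 3 against 3 allows. Adjusted p-values over the 14 alternatives ran from 0.0888 to 0.932, and the log2 fold change was 0.53 and 0.54 with TNBS replicate 1 and replicate 2 kept alone. The pattern of Cd163 did not follow that of C1q: normal replicate 1, with the most C1q of the normal libraries, held the least Cd163.

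Mrc1 encodes the mannose receptor, which is made by tissue macrophages and also by lymphatic endothelium. It was at 59.3, 65.7 and 96.2 CPM in normal colon and at 78.4, 34.1 and 71.2 CPM in TNBS colon. The groups overlapped, with TNBS replicate 2 below all other libraries. The log2 fold change was -0.27 (SE 0.32, edgeR adjusted p = 0.657; fold interval 0.505 to 1.37), and it turned to 0.02 without TNBS replicate 2 and to 0.09 with TNBS replicate 1 alone. The 7 lymphatic endothelial markers fixed as a list (Prox1, Pdpn, Flt4, Lyve1, Ccl21a, Reln and Mmrn1) summed to 216 to 238 CPM in normal colon. In TNBS replicates 1 to 3 they summed to 229, 104 and 235 CPM, so they too were lowest in replicate 2. That low was not particular to them. The sums of the fibroblast, smooth muscle and colon epithelium lists were also lowest in that library, at 624, 2021 and 7890 CPM. The blood endothelial sum was highest there, at 361 CPM. None of the 7 lymphatic markers was at 0 in any library, and 0 passed the test in edgeR (0 also at an unadjusted p under 0.05), DESeq2 or limma-voom. Their part in the level of Mrc1 was not tested.

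Cx3cr1 encodes the receptor for fractalkine and is high on mature gut macrophages. It was at 27.9, 20.3 and 19.2 CPM in normal colon and at 16.1, 2.004 and 13.9 CPM in TNBS colon. Every TNBS library was below every normal one, and TNBS replicate 2, with 31 counts, stood far below the other TNBS libraries. That library also had the highest mitochondrial share, 3.92%, whose part in the result was not tested. The mean went from 22.5 ± 4.75 to 10.7 ± 7.58 CPM (SD, n = 3), and the log2 fold change was -1.07 (SE 0.59, edgeR adjusted p = 0.330; fold interval 0.188 to 1.21; exact permutation p = 0.1). With TNBS replicate 2 kept alone, Cx3cr1 passed the test at a log2 fold change of -3.49 (edgeR adjusted p = 0.0121), where 5.46% of genes did. Without TNBS replicate 2 the log2 fold change was -0.58 (edgeR adjusted p = 0.430). Over the alternatives with more than 1 TNBS library, its adjusted p ran from 0.183 without TNBS replicate 1 to 0.507 without normal replicate 1, both in edgeR.

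Set against C1q within the same library, a comparison that needs no scaling between libraries, Cx3cr1 differed most among Cd68, Cd163, Mrc1 and Cx3cr1. There were 0.250, 0.243 and 0.323 Cx3cr1 counts per C1q count in normal colon, and 0.0974, 0.0266 and 0.116 in TNBS colon. The groups did not overlap, as for 20.4% of all genes tested when set against C1q in this way (18.6% with TNBS lower). The difference was -2.01 on the log2 scale, where the median gene differed by -0.46, and it ran from -2.41 to -1.34 when each library was left out in turn. For Mrc1 the ratio was 0.531, 0.789 and 1.61 in normal and 0.474, 0.452 and 0.593 in TNBS colon, which overlapped. For Cd163 it was 0.111, 0.177 and 0.308 in normal and 0.132, 0.293 and 0.287 in TNBS colon, which also overlapped. The genes were chosen with results of these data known, so these ratios are given with no test.

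**Figure D3:**
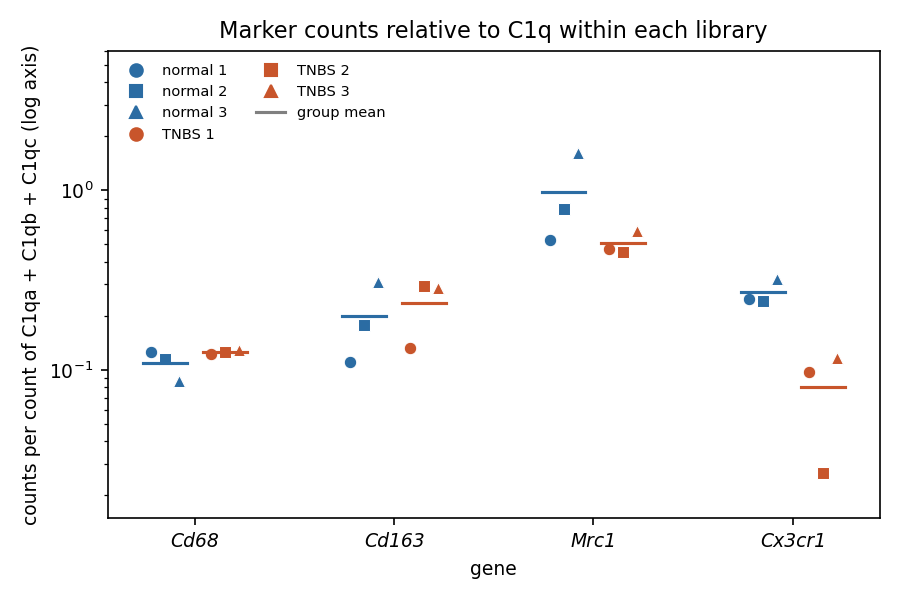
Counts of Cd68, Cd163, Mrc1 and Cx3cr1 per count of C1qa, C1qb and C1qc summed (log axis) in each library, with blue for normal, orange for TNBS, a marker shape per replicate and a bar at each group mean (n = 3). Only for Cx3cr1 do the groups drawn not overlap, at 0.243 to 0.323 in normal and 0.0266 to 0.116 in TNBS colon.

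Csf1r lies on chromosome 18 from 61100598 to 61132149 (mm10). It had 0 counts in each normal library, which allows up to 0.128 to 0.139 CPM per library. It had 7, 0 and 2 counts in TNBS replicates 1 to 3. These values came from the same libraries in which C1qb had 430 to 1406 counts. The gene carries 5774 bases of exon in GENCODE vM21, of which 873 bases (15.1%) overlap exons of Hmgxb3 on the other strand, and none of its 50-base stretches occur in another gene's transcripts. Reads of an overlap may be assigned to either gene where counting takes no account of strand. Laptm5, a lysosomal membrane gene of all leukocytes, also ranged widely, at 0 to 125 counts, while Ptprc, the common leukocyte antigen, had 487 to 3740. No fold is given for Csf1r, because most of its counts were at or under 3.

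Per kilobase of exon, the order of levels in normal colon was C1qb at 28.5 ± 9.85, C1qa at 26.4 ± 8.59, C1qc at 13.7 ± 3.75 and Mrc1 at 11.6 ± 3.09 CPM per kb (SD, n = 3). Below them were Cd68 at 7.64 ± 3.56, Cx3cr1 at 4.99 ± 1.05 and Cd163 at 2.77 ± 0.556 CPM per kb (SD, n = 3), with Csf1r at 0. The values of neighbours in this order overlapped, except between C1qa and C1qc, between Cx3cr1 and Cd163 and between Cd163 and Csf1r. In TNBS colon Cd163, at 4.78 ± 1.31, stood above Cx3cr1, at 2.37 ± 1.68 CPM per kb (SD, n = 3), and the values of these genes did not overlap in either group.

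Other genes of tissue macrophages had means on either side of normal colon. Of 18 listed genes 17 were tested, and 0 passed edgeR's test in either direction; 9 had a higher mean in TNBS colon, the groups did not overlap for 5 (30.1% of all genes), and the median log2 fold change was 0.02. At an unadjusted p under 0.05 (21.0% of all genes) there were 4, Clec10a, Siglec1, Vsig4 and Maf; limma-voom called 0, and DESeq2, which called 9.52% of all genes, called 1 in each direction. Adgre1, whose product is the F4/80 antigen, was at 25.3, 28.7 and 29.3 CPM in normal and at 28.0, 8.40 and 21.3 CPM in TNBS colon (log2 fold change -0.52, edgeR adjusted p = 0.454). TNBS replicate 2 was again the lowest library, and the log2 fold change turned to 0.02 with TNBS replicate 1 kept alone. Vsig4, a complement receptor of resident macrophages, had the value furthest from 0, with 1, 4 and 0 counts in normal and 14, 12 and 15 in TNBS colon (log2 fold change 3.15, edgeR adjusted p = 0.192). The log2 fold change ran from 2.63 without normal replicate 3 to 4.66 without normal replicate 2. Siglec1, sialoadhesin, was at 10.8, 7.30 and 10.04 CPM in normal and at 4.18, 0.517 and 2.93 CPM in TNBS colon (log2 fold change -1.87, edgeR adjusted p = 0.148). Clec10a, a galactose-type lectin, was at 1.88, 2.76 and 1.97 CPM in normal and at 4.73, 4.59 and 8.26 CPM in TNBS colon (log2 fold change 1.41, edgeR adjusted p = 0.136). Siglec1 and Clec10a, which like Maf were named after their values were seen, did not overlap between the groups, in opposite directions. Timd4 and Folr2, also named after their values were seen, were at 0 counts in TNBS replicate 2 and at 28 to 76 counts in normal colon.

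**Figure D4:**
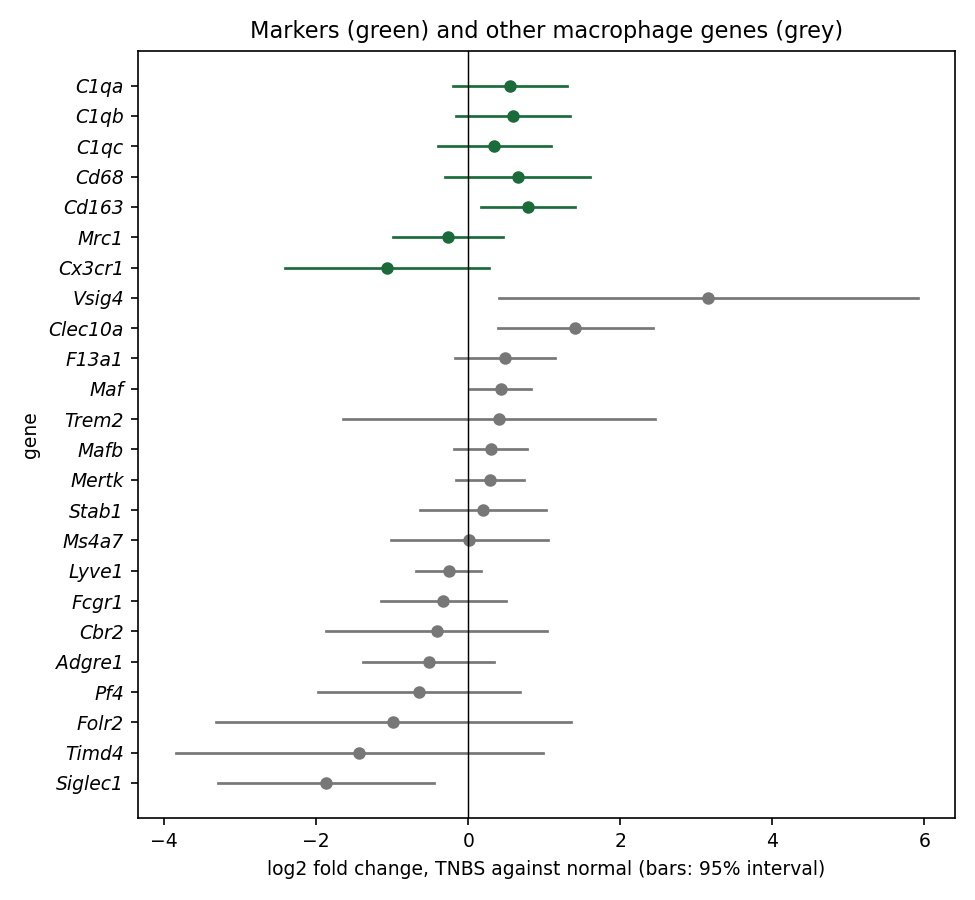
Log2 fold change of TNBS against normal colon with its 95% interval from the edgeR fit (n = 3 per group), for 7 marker genes in green and the 17 other macrophage genes tested in grey. The intervals of Cd163, Vsig4, Clec10a and Maf lie above 0 and that of Siglec1 below it, but none of the 24 passed after adjustment over all genes.

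The list of ligands and partners of the markers had 2 of 12 genes higher and none lower in TNBS colon (0.906% of all genes were called higher), with a median log2 fold change of 0.61. Both genes that rose, Hp and Hmox1, handle free haemoglobin or its haem. A link to the level of Cd163, which was not called, was not tested. Hp, which binds haemoglobin, was at 0.0436, 0.680 and 1.26 CPM in normal and at 18.9, 12.1 and 6.41 CPM in TNBS colon (log2 fold change 4.24, SE 0.85, edgeR adjusted p = 0.0440). Normal replicate 1 held 1 count of Hp, and without that library the log2 fold change was 3.70. Hmox1, which breaks down haem, was at 5.80, 3.49 and 3.48 CPM in normal and at 12.6, 17.8 and 12.4 CPM in TNBS colon (log2 fold change 1.74, SE 0.35, edgeR adjusted p = 0.0432). Each of these calls was lost when any library but TNBS replicate 1 was left out, with edgeR adjusted p-values of 0.0525 to 0.189, and that of Hp was also lost with limma-voom (adjusted p = 0.0927). The Csf1r ligand Csf1 was at 29.8, 24.8 and 13.7 CPM in normal and at 30.8, 13.6 and 25.2 CPM in TNBS colon, with a log2 fold change of 0.03 whose sign changed between alternatives (edgeR adjusted p = 0.974). Il34, the other ligand, was at 5.02, 3.35 and 0.0505 CPM in normal and at 6.997, 8.99 and 5.90 CPM in TNBS colon (log2 fold change 1.37, edgeR adjusted p = 0.425). Normal replicate 3 held 1 count of Il34, and without that library the log2 fold change was 0.80. Cx3cl1, the fractalkine that binds Cx3cr1, was at 53.0, 56.8 and 42.0 CPM in normal and at 66.7, 65.4 and 66.8 CPM in TNBS colon. Its groups did not overlap, and its log2 fold change was 0.39 (SE 0.18, edgeR adjusted p = 0.251).

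Among 14 genes of the C1 complex and the classical complement pathway, 0 passed edgeR's test, 12 had a higher mean in TNBS colon, the groups did not overlap for 7 (30.1% of all genes), and the median log2 fold change was 0.47. DESeq2 called 3 of them higher (9.52% of all genes in either direction) and limma-voom 0. At an unadjusted p under 0.05 (21.0% of all genes) there were 5, Itgam, C4b, C1ra, C3 and Cd93, all with a higher mean in TNBS colon and named after their values were seen. The proteases that C1q activates, C1r and C1s, are encoded by C1ra and C1s1, which have near-identical copies, so their counts are uncertain. C1ra was at 44.5, 41.1 and 37.1 CPM in normal and at 92.1, 54.3 and 57.8 CPM in TNBS colon (log2 fold change 0.73, SE 0.23, edgeR adjusted p = 0.135). C1s1 went from 138 ± 11.5 to 189 ± 65.7 CPM (SD, n = 3; edgeR adjusted p = 0.329). Serping1, the inhibitor of C1r and C1s, went from 105 ± 11.2 to 146 ± 38.9 CPM (SD, n = 3; edgeR adjusted p = 0.241), with no overlap between the groups. C2, cleaved by C1s, had the largest log2 fold change, 1.40 (edgeR adjusted p = 0.276), which ran from 0.97 without normal replicate 3 to 2.13 without normal replicate 1. Of 12 lysosome genes, fixed as companions of Cd68, 1 rose and none fell in edgeR (0.906% of all genes were called higher), with a median log2 fold change of 0.11. This was Lgmn, an asparaginyl endopeptidase, at 88.9, 79.4 and 92.4 CPM in normal and at 195, 217 and 200 CPM in TNBS colon (log2 fold change 1.23, SE 0.16, edgeR adjusted p = 0.0131). Of the 6 fits that each leave out a library, that without normal replicate 2 lost the call (edgeR adjusted p = 0.0820). The groups did not overlap for 5 of the 12 lysosome genes, in both directions (30.1% of all genes). DESeq2, which called 9.52% of all genes, called 1 of the 12 higher and 1 lower.

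Markers of other cells in the tissue were counted in the same fit, in which edgeR called 0.906% of all genes higher and 1.14% lower. Of 10 blood monocyte genes tested 2 rose and none fell (median log2 fold change 0.39): Cd14, the lipopolysaccharide co-receptor, and Chil3, a chitinase-like protein with a near-identical copy. Chil3 had 3, 5 and 1 counts in normal and 81, 786 and 367 in TNBS colon, so it passed the filter through the TNBS libraries alone. The groups did not overlap for 5 of the 10 (30.1% of all genes), and 4 were at an unadjusted p under 0.05 in edgeR (21.0% of all genes). Ly6c2, a marker of classical monocytes with a near-identical copy, named after its values were seen, had lower values with no overlap, at 16.5, 20.4 and 9.89 CPM in normal and at 6.59, 1.75 and 6.36 CPM in TNBS colon (log2 fold change -1.66, edgeR adjusted p = 0.122). DESeq2, which called 9.52% of all genes in either direction, called 3 monocyte genes higher and 1 lower. Of 5 neutrophil genes tested 4 rose and none fell (median 6.81), led by S100a9, S100a8 and Mmp8 at edgeR adjusted p-values of 0.0020, 0.0123 and 0.0128. These 3 had at most 10 counts in a normal library and passed the filter through the TNBS libraries alone, so a fall could not have been seen. Csf3r and Camp, also listed and named after their values were seen, did not pass the filter. Csf3r had 1, 2 and 1 counts in normal and 6, 0 and 0 in TNBS colon. Camp had 0, 1 and 8 in normal and 0, 20 and 10 in TNBS colon. With limma-voom 0 monocyte genes and 1 neutrophil gene were called, and the adjusted p-values were 0.0557 for Cd14, 0.294 for Chil3, 0.0579 for S100a9, 0.123 for S100a8 and 0.0355 for Mmp8. Leaving out normal replicate 3 ended the calls of S100a8, Mmp8 and Chil3 (edgeR adjusted p = 0.0675, 0.0511 and 0.103), leaving out normal replicate 2 ended those of Mmp8 and Chil3, and leaving out normal replicate 1 ended that of Chil3. Of the 6 fits that each leave out a library, Cd14 was called in 1, that without TNBS replicate 1. The neutrophil sum was 0.858 to 1.72 CPM in normal and 50.5 to 120 CPM in TNBS colon, with replicate 2 highest, while the C1q chains in that library lay within their normal range. In edgeR 0 of 8 dendritic cell genes passed (median -0.19; Cd209a was furthest from 0 at -2.12, and at -3.59 without TNBS replicate 1 and -1.57 without TNBS replicate 2), as did 0 of 6 genes of all leukocytes (median -0.17), and in both lists 0 were at an unadjusted p under 0.05 or called by DESeq2 or limma-voom. Ptprc was at 163, 57.2 and 81.7 CPM in normal and at 90.4, 31.5 and 90.4 CPM in TNBS colon (edgeR adjusted p = 0.551), with its high in normal replicate 1. The B and plasma cell markers Cd79a, Cd79b, Ms4a1, Jchain and Mzb1 also had their highest sum in that library, at 2476 CPM against 226 to 2359 CPM in the other 5. Most of this sum was Jchain, at 2363, 2327 and 1600 CPM in normal replicates 1 to 3. In the same libraries Ms4a1 was at 44.1, 2.45 and 0.101 CPM and Mzb1 at 16.4, 17.4 and 6.41 CPM. C1q counts, summed, came to 0.684, 1.45 and 0.729 per Ptprc count in normal and to 1.83, 2.40 and 1.33 in TNBS colon, which overlapped; this ratio was added after the data were seen. In edgeR 0 genes passed in the lists of T and NK cells (6 tested, median 0.42), B and plasma cells (5, median -1.91; Ms4a1 was furthest from 0 at -2.15, and this sign turned without normal replicate 1), lymphatic endothelium (7, median -0.12), fibroblasts (5, median 0.04), colon epithelium (6, median -0.73) and smooth muscle (4, median -0.93). At an unadjusted p under 0.05 (21.0% of all genes) these lists held 2, 2, 0, 1, 3 and 3 genes. DESeq2, which called 9.52% of all genes, called 1 T and NK cell gene higher, and 2 B and plasma cell, 2 epithelial and 3 smooth muscle genes lower; limma-voom called 1, an epithelial gene, lower. Of 5 blood endothelial genes (median 1.01) edgeR called 1 higher, Cdh5, the endothelial cadherin. Of those 6 fits, Cdh5 too was called only in that without TNBS replicate 1. Each of these 5 genes averaged more CPM in the TNBS libraries than in the normal ones. The groups did not overlap for 4 of them (30.1% of all genes), and 4 were at an unadjusted p under 0.05 in edgeR. DESeq2 called 2 of the 5 higher and limma-voom 1. What these shifts contribute to the levels of the macrophage markers was not tested.

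The genes whose patterns lay closest to each marker were named by the same measure over the 6 libraries, as a description. Nearest to the mean of the C1q chains were Arrb2, Pyy and Hspa12b, at 0.12 to 0.13. Nearest to Cd68 were Wnt4, Hspa12b and Tgfb1, at 0.11 to 0.16. Nearest to Cd163 were Asxl3, Paqr5 and Adat2, at 0.13 to 0.16, and nearest to Mrc1 were Nfxl1, Zfp3 and Erap1, at 0.10 to 0.11. Nearest to Cx3cr1 were Kctd21, Tceal6 and Gstm3, at 0.14 to 0.22. Nearest to C1qc were Fbln2, Cd1d1 and Crtap, at 0.09 to 0.11, and after each other C1qa and C1qb had Arrb2 and Chst1, at 0.09 to 0.12.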

How the data were processed

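Per the file headers, the authors deposited raw counts for each gene, beside 6 columns of normalized counts that were not used here. CASAVA 1.8, HISAT2 and mm10 are named in the submitters' processing notes; for the counting tool, strand setting and annotation, the sources used here give nothing. Symbols (16732 of 16906 identifiers matched), coordinates and exon lengths came from GENCODE vM21 (GRCm38). Genes were filtered with filterByExpr (minimum count 10, minimum total 15) and TMM-scaled. TNBS was tested against normal colon with edgeR 4.0.16 (glmQLFit, glmQLFTest, two-sided, group only; R 4.3.3), with Benjamini-Hochberg adjustment over 14126 genes and a threshold of 0.05. Alternatives used DESeq2 1.42.0 and limma 3.58.1. Standard errors are the log2 fold change over the square root of F. CPM are TMM-scaled; patterns used log2 CPM with a prior count of 2. The fit was tested on simulated data. P-values reflect only sample-to-sample spread, which may be technical, and floors cover counting error only. The genes and 15 lists were chosen with earlier results of these data known. Genes named beside the markers were called list members (at most 3 per list, by p) or the member furthest from 0, the ligands and partners, and the 3 genes nearest in pattern among those with a mean of at least 10 counts. Exceptions are marked. Batf3 and Mpo, both listed, were not analysed here, and 1 other listed gene is not reported here.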

Additional observations from a re-analysis of the deposited data

How the results depend on the processing

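Each of the 7 tested markers was recomputed under 14 alternatives, and of these 98 values 91 kept direction and side of the threshold, 6 changed sign and 1 passed the threshold. With TNBS replicate 2 kept alone the log2 fold changes were -0.14 for C1qa, -0.052 for C1qb, -0.37 for C1qc, -0.032 for Cd68, -0.75 for Csf1 and -3.49 for Cx3cr1, the last past the threshold, so 1 marker was called there. With TNBS replicate 1 kept alone they were 0.093 for Mrc1 and 0.018 for Adgre1. These fits take the spread of the normal libraries for the single TNBS library. The cause was not tested.

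All genes called numbered 128 higher and 161 lower as reported. There were 666 and 679 with DESeq2, 80 higher with limma-voom, 209 higher with no filter, and 196 higher and 102 lower with library totals alone, which shifts the median gene by 0.15. With TNBS replicate 2 alone there were 338 and 480, and with TNBS replicate 1 alone 30 and 33. Of the listed genes 10 were called as reported, 28 with DESeq2, 5 with limma-voom, 24 with TNBS replicate 2 alone and 2 with TNBS replicate 1 alone.

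When each library was left out in turn, calls ran from 7 to 532 higher and 11 to 576 lower, and from 2 to 19 for listed genes. Values ran from -0.49 to 0.023 for Mrc1 (the last without TNBS replicate 2), -0.23 to 0.30 for Csf1, -0.78 to 0.043 for Ptprc, -1.37 to 0.84 for Laptm5 and -2.72 to 1.45 for Ms4a1, the last 3 turning without normal replicate 1. Ms4a1 was at 0.27 with limma-voom.

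Same-numbered libraries did not deviate together (correlations of 0.0055, 0.0149 and 0.0354 over the genes tested), so the numbers were not taken as pairs. A replicate block gave 153 genes higher and 207 lower and called 0 markers; Hp, Hmox1 and Cd14 had adjusted p-values of 0.0555, 0.0569 and 0.0518 there, and Ms4a1 had a log2 fold change of 0.028.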
